A study of Mus musculus with 14 samples.

Results

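The simple-epithelial keratins *Krt7*, *Krt8*, *Krt18* and *Krt19* are 4 of the 54332 genes quantified in mouse back-skin epidermal stem cells (EpdSCs) during sustained re-activation of the transcription factor SOX9, and were picked by gene symbol. Keratins are the intermediate filament proteins of epithelial cells, and each filament needs a type II and a type I partner. *Krt7* and *Krt8* encode type II keratins, and *Krt18* and *Krt19* encode type I keratins. KRT8 and KRT18 are the founding pair of single-layered epithelia such as liver and gut, KRT7 is found in ducts and glands, and KRT19 is an unusually short type I keratin of ducts and of some hair follicle cells. The epidermis instead builds its basal filaments from KRT5 and KRT14, and in normal mouse skin KRT8 and KRT18 are best known as markers of Merkel cells.

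Every time-course library came from CD1 mice labelled male and carrying *K14rtTA; TRE-myc-Sox9*, in which a *Krt14* promoter drives the DOX-dependent activator rtTA and thereby a MYC-tagged *Sox9* transgene. EpdSCs were sorted from back skin as cells with high CD49f and Ly6A and without CD31, CD34, CD45, CD117 or CD140a, and there were 2 biological replicates at each of 5 timepoints. D0 mice were at postnatal day 21, when doxycycline (DOX) was given, W1 mice at day 28, W2 mice at day 35 and W6 mice at day 63, all kept on DOX feed after D0. W12 cells came from neonatal skin of the same genotype that was grafted onto immunocompromised female Nude hosts, allowed to heal and then induced, so that at W12 time on DOX and grafting cannot be told apart, and at W1 to W6 neither can time on DOX and age. All 5 groups carry both transgenes, and no uninduced group of matching age entered the comparison.

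The values are TPM, a length-corrected share of each library's transcripts scaled to the same total in every library, which allow genes to be compared per length. Replicates correlated over all tested genes with r from 0.958 at W6 to 0.988 at W2. The transgene was at 89.6 and 45.6 TPM at D0, 3387 and 3414 TPM at W1, and between 606 and 1892 TPM in the 6 later libraries, whereas endogenous *Sox9* was between 2.71 and 13.6 TPM in all libraries. As the transgene carries the *Sox9* coding sequence, how reads were divided between these entries is uncertain. The labelled sex did not hold in D0 replicate 2, with 4.61 TPM of *Xist* and 0.0278 TPM of the Y-linked *Ddx3y*. Both W12 libraries held both signals, with 5.51 and 3.50 TPM of *Xist* beside 10.97 and 12.9 TPM of *Ddx3y*. The tests against D0 of the 4 keratins, the other keratins and the gene lists were therefore repeated without D0 replicate 2, and those at W12 without each W12 library. These fits leave 1 library in a group, whose spread is taken to be that of the other timepoints, and do not address a signal that both W12 libraries carry. Whether the W12 libraries held cells of the female hosts was not tested. In bulk libraries, more cells that express a gene and more RNA per cell cannot be told apart.

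*Krt7* lies on chr15:101411043-101430313 (GRCm38, plus strand), *Krt8* on chr15:101996698-102004482 (minus strand) and *Krt18* on chr15:102028180-102032027 (plus strand), all in the type II keratin cluster, where *Krt18* is the one type I gene. *Krt8* and *Krt18* point away from each other across 23697 bases that hold 0 other genes of the table, and *Krt7* is 566384 bases from *Krt8*. *Krt19* lies on chr11:100140810-100148665 (minus strand) in the type I cluster. The sequences upstream of the start sites are shown because *Krt8* and *Krt18* are neighbours that were both called higher at W12 below. They are from RefSeq (GRCm38.p6), which matched 3 of the 4 genes, 5′ to 3′ on the gene's strand, and stop where the first exon of a coding transcript begins: chr15:101412153-101412401 for *Krt7*, chr15:102004483-102004592 for *Krt8* and chr15:102027966-102028179 for *Krt18*. Capitals mark matches on either strand to GGGCGG (a GC box) and ACAAAG (a SOX core).
Krt7: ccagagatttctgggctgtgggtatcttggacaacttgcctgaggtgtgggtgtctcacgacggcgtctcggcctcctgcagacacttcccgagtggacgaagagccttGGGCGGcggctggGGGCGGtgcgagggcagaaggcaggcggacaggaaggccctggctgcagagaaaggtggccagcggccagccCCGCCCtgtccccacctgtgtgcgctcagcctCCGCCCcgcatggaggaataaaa
Krt8: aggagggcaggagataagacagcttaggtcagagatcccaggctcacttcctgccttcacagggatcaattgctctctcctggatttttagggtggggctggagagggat
Krt18: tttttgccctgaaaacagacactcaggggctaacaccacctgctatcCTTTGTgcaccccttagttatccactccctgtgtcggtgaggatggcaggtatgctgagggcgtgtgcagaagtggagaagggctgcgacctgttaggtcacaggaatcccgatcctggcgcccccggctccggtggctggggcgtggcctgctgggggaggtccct

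The search covered the 250 bases before the RefSeq start, of which the last 1 of *Krt7*, 140 of *Krt8* and 36 of *Krt18* lie in the first exon annotated by GENCODE and are not printed. *Krt7* held 4 GC boxes, a motif present in 32.7% of 32851 promoter windows of the same length. *Krt18* held 1 SOX core ACAAAG, 203 to 198 bases before its RefSeq start and on the opposite strand, a motif present in 16.5% of all windows. *Krt8* held 0 matches to any motif searched. The other letters searched on both strands, namely the SOX core AACAAT (9.42% of windows), RUNX TGTGGT (14.0%), AP-1 TGANTCA (6.75%), TATA box TATAAA (12.4%) and ETS CCGGAA (12.03%), had 0 matches in the 3 windows. These letters are a description of the windows and not of binding.

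All 4 keratins were at 1.01 TPM or less at D0 and had higher values in both W12 libraries than in any earlier one. *Krt8*, the type II partner, was at 0.0348 and 0.0390 TPM in the D0 replicates, 0.0647 and 0.0487 at W1, 2.73 and 0.302 at W2, 5.84 and 1.15 at W6, and 46.3 and 145.4 at W12. Its lowest W12 library was 7.93-fold above its highest library elsewhere, and at W2 and W6 replicate 1 was 9.05-fold and 5.07-fold above replicate 2.

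*Krt18*, the type I partner encoded next to *Krt8*, was at 0.473 and 0.0666 TPM at D0, 0.264 and 0.0155 at W1, 2.44 and 0.399 at W2, 3.80 and 0.442 at W6, and 32.9 and 105.3 at W12. Through W6 its replicate 2 overlapped the D0 range or lay below it, and the W12 libraries stood 8.66-fold or more above all others.

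*Krt19*, which can pair with either type II member, was at 0.691 and 0.362 TPM at D0, 0.197 and 0.0619 at W1, 1.70 and 0.0808 at W2, 2.83 and 0.258 at W6, and 44.4 and 156.5 at W12. Its D0 and W2 values overlapped, as did its D0 and W6 values, and its lowest W12 library was 15.6-fold above the highest of the other 8.

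*Krt7* had another course. It was at 0.838 and 1.01 TPM at D0, 2.49 and 2.82 at W1, 2.61 and 1.88 at W2, 0.966 and 0.456 at W6, and 4.31 and 12.7 at W12. Mean TPM was 2.66 at W1 and 2.25 at W2 against 0.924 at D0, and neither change was called (adjusted P = 0.190 and 0.241 by limma, as tested below). The W6 libraries overlapped D0, and the lowest W12 library was 1.53-fold above the highest elsewhere.

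**Figure D1:**
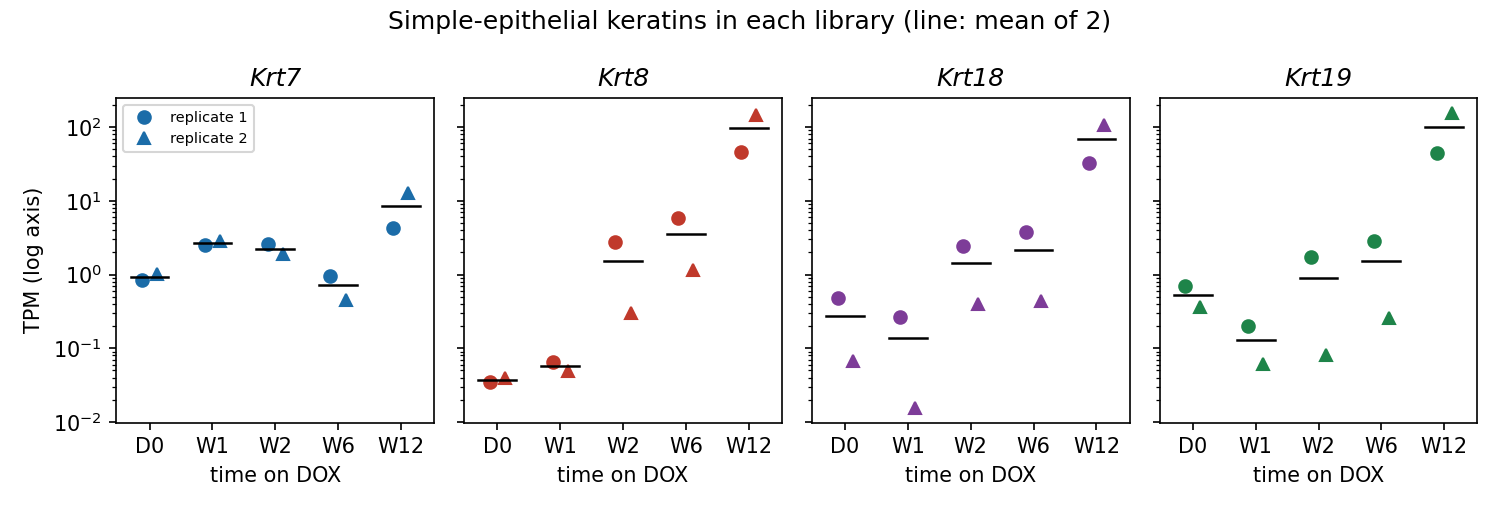
TPM of the 4 genes (log axis) in each library by time on DOX, with circles for replicate 1, triangles for replicate 2 and a line at the mean of the 2. The W12 points lie above all others in each panel, *Krt8*, *Krt18* and *Krt19* show a gap between replicates at W2 and W6, and *Krt7* is at 2.66 TPM on average at W1 and 0.711 TPM at W6.

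Means at W12 were 95.8 ± 70.0 TPM for *Krt8*, 69.1 ± 51.2 for *Krt18*, 100.4 ± 79.3 for *Krt19* and 8.52 ± 5.95 for *Krt7* (SD, n = 2). The order *Krt19*, *Krt8*, *Krt18* rests on differences smaller than these SDs, while in both W12 libraries *Krt7* was below the other three. The second W12 library exceeded the first by 2.95-fold to 3.53-fold for all 4 genes.

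Changes between timepoints were tested with limma on log2(TPM + 1) over 13110 genes, with P values adjusted by Benjamini-Hochberg, and are log2 changes on that scale, which understates the change of low genes. All 4 genes passed the filter of a mean of 1 TPM, but *Krt18* (mean of 0.987 TPM over the 8 libraries before W12) and *Krt19* (0.774 TPM) passed only through W12, so that counts over the 4 at W12 are partly fixed by the filter and are descriptions. The W12 values and P values of *Krt18* and *Krt19* below, against D0 and against W6, carry the same limit, which holds for 349 of the genes tested. From D0 to W12, *Krt8* rose by 6.33 ± 0.69 (SE, adjusted P = 0.000246 by limma), place 41 of the 13110 changes. *Krt19* rose by 5.80 ± 0.69 (adjusted P = 0.000384), *Krt18* by 5.58 ± 0.69 (adjusted P = 0.000473) and *Krt7* by 2.15 ± 0.40 (adjusted P = 0.00336). Of all genes tested, 17.9% were called higher at W12 than at D0 and 25.1% lower. The median change of all genes tested was -0.08.

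Without D0 replicate 2, *Krt8* was higher at W12 by 6.33, *Krt18* by 5.35, *Krt19* by 5.64 and *Krt7* by 2.22, and the largest of the 4 adjusted P values in limma was 0.0186, with the spread of the lone D0 library taken from the other groups. Without the first or the second W12 library the 4 calls stayed as well, with *Krt8* at 7.14 and 5.51 and *Krt7* at 2.84 and 1.47, under the same assumption for the lone W12 library. Of 98 other genes of the lists and keratins below that were tested, 68 were called at W12 against D0, and 57 of these calls stayed without D0 replicate 2, 51 without the first and 56 without the second W12 library, with no change of sign. Both W12 libraries lay above the 8 others for each of the 4 keratins (10.1% of all genes tested), which is no support for *Krt18* and *Krt19*, as these were tested because of their W12 values.

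Markers of other cell types were read beside these values, since the sort should have removed several of them. Of 5 endothelial markers, 3 could be tested, and *Pecam1* (CD31, the antigen of the sort's negative gate), *Emcn* and *Tek* were higher at W12 than at D0 by 5.21, 4.95 and 3.15, although all 3 passed the filter only through W12 (means of 0.345, 0.0554 and 0.0405 TPM before), so that their calls are descriptions. *Pecam1* was at 1.14 TPM or less in the 8 earlier libraries and at 26.1 and 59.8 TPM at W12. The 5 endothelial genes summed to 0.0598 to 1.64 TPM before W12 and to 57.0 and 124.0 TPM at W12, so that the second W12 library was the higher one, as for the keratins. *Cd34*, a surface marker of bulge stem cells and endothelium that the sort also excluded, rose by 4.31, to 16.5 and 32.0 TPM. The part of these cells in the W12 keratin values was not tested.

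Merkel cells express *Krt8*, *Krt18* and *Krt20*. None of the 7 Merkel cell markers was high enough to test, and the list summed to 0 to 1.48 TPM before W12 and to 1.03 and 2.70 TPM at W12. *Atoh1* and *Pou4f3* were at 0 in both W12 libraries, *Isl1* was at 0.713 and 1.44 TPM there (0.780 TPM in W6 replicate 2 and 0.106 TPM or less in the other earlier libraries), and *Krt20* at 0.258 and 0.544 TPM (0.0109 TPM or less before). The part of Merkel cells in the keratin values was not tested. Sebocyte markers, with 1 of 5 tested (*Scd3*, 3.12 higher at W12), summed to 8.44 and 12.8 TPM at W12 and to 20.9 and 13.4 TPM at W6. Of the 5 fibroblast markers 1 was tested and none called, with sums of 13.5 and 27.6 TPM at W12, 52.1 TPM in W6 replicate 2 and 0.428 to 3.27 TPM in the other 7 earlier libraries. The W12 fibroblast sums were thus above those of 7 of the 8 earlier libraries, and their part in the keratin values was not tested. Of 2 immune markers tested, *Cd74* was called higher (2.45), while *Ptprc* (CD45) averaged 0.173 TPM at W12. The 5 immune genes summed to 4.07 to 28.7 TPM before W12 and to 103.7 and 126.0 TPM at W12. The part of immune cells in the keratin values was not tested. Of 3 melanocyte markers tested, *Tyrp1* (1.53, tested only through W12) and *Dct* (1.30) were called higher, neither of them without the first W12 library and *Dct* not without the second, with sums of 12.5 and 10.9 TPM at W12, 11.7 TPM in W6 replicate 2 and 1.22 to 6.23 TPM in the other 7 earlier libraries. Among 6 genes each, and beside 17.9% of all genes called higher and 25.1% lower, 1 bulge marker was called higher (*Cd34*) and 2 lower, and 1 isthmus and infundibulum marker was higher (*Krt17*) and 3 lower. With D0 replicate 2 or either W12 library left out, 1 bulge marker and 1 to 2 isthmus and infundibulum markers were lower. Of the 6 markers of the sorted EpdSCs, *Ly6a* was called higher (0.80), *Krt5*, *Trp63* and *Itgb4* lower, again beside 17.9% and 25.1% of all genes. The list summed to 44707 and 46470.5 TPM at W12 against 46059 and 47446 TPM at D0. These sums are mostly *Krt14*, at 35371 and 37666 TPM at W12 and 29902 and 31097 TPM at D0, and do not describe the other markers. The *Ly6a* call was lost without D0 replicate 2 and without either W12 library.

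**Figure D2:**
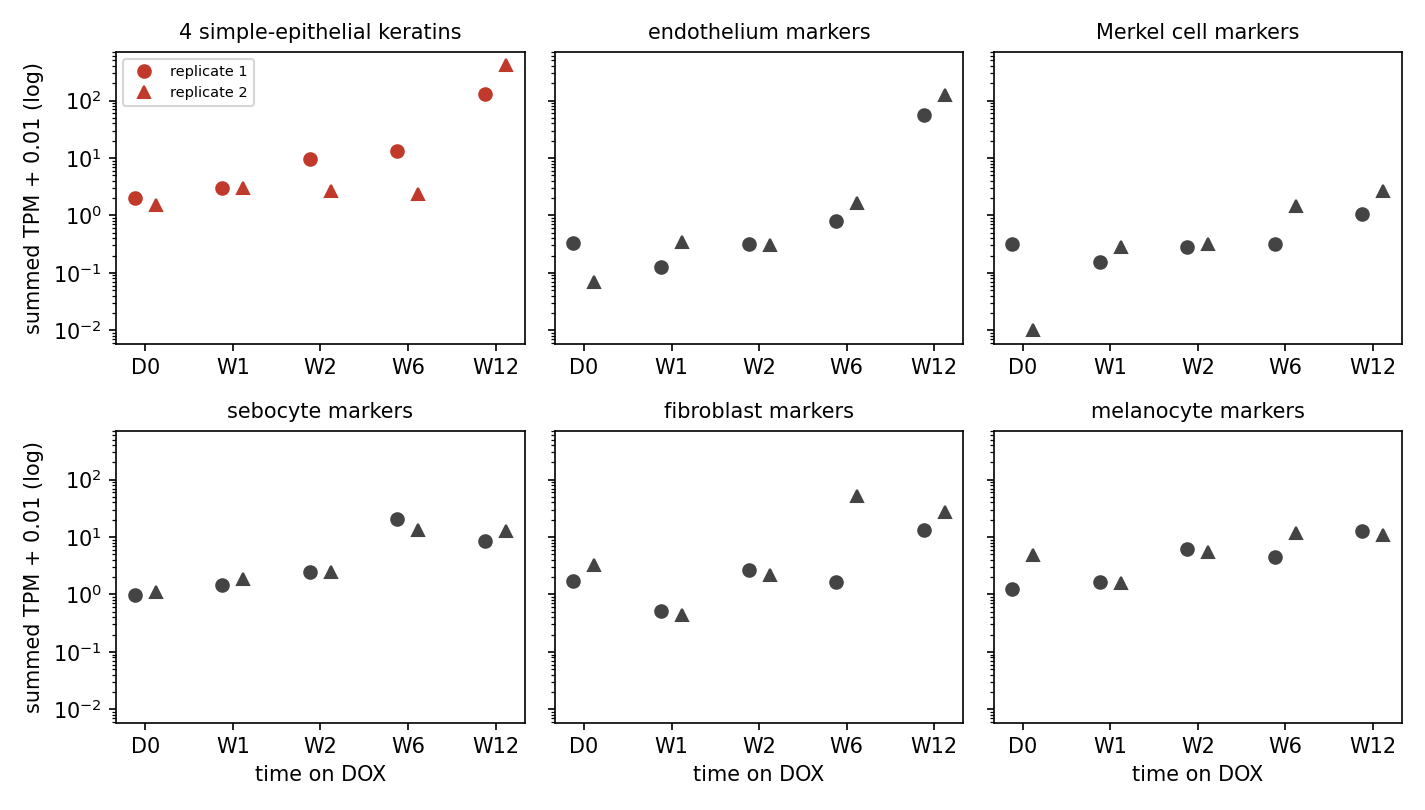
Summed TPM + 0.01 (log axis) of the 4 simple-epithelial keratins and of marker lists of 5 other cell types in each library (circles, replicate 1; triangles, replicate 2). The keratins reach 127.9 and 419.9 TPM at W12, the endothelial markers 57.0 and 124.0 TPM, and the Merkel cell markers stay at 2.70 TPM or less.

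W12 was also compared with W6. Mean TPM was 27.4-fold higher at W12 than at W6 for *Krt8*, 32.6-fold for *Krt18*, 64.9-fold for *Krt19* and 11.98-fold for *Krt7*. From D0 to W6, where none was called, the ratio of mean TPM was 94.7 for *Krt8*, from a D0 mean of 0.0369 TPM, 7.86 for *Krt18*, 2.94 for *Krt19* and 0.769 for *Krt7*. On the tested scale *Krt19* rose by 5.27 ± 0.69 (SE, adjusted P = 0.00186 by limma), *Krt18* by 4.51 ± 0.69 (adjusted P = 0.00392), *Krt8* by 4.44 ± 0.69 (adjusted P = 0.00419) and *Krt7* by 2.34 ± 0.40 (adjusted P = 0.00630), with the limit of the filter for *Krt18* and *Krt19* given above. Of all genes, 6.66% were called higher at W12 than at W6. The *Krt7* call was lost when only the 4 libraries of the contrast were fitted (adjusted P = 0.0555 by limma).

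Before W12 none of the 4 passed the threshold in any contrast, at any of W1, W2 or W6 against D0, W2 against W1 or W6 against W2, where the shares of all genes called higher were 5.79%, 9.06%, 18.3%, 0.0458% and 7.99%. The nearest was *Krt8* at W6 against D0, at 1.89 ± 0.69 (SE, adjusted P = 0.0669 and unadjusted P = 0.0242 by limma). Without W6 replicate 1 it was 1.05 (adjusted P = 0.301) and without W6 replicate 2, which leaves the higher W6 library alone with its spread taken from the other groups, it was 2.72 and passed (adjusted P = 0.0339). It also passed with both W6 libraries and a pseudocount of 0.1 (4.32, adjusted P = 0.0138). *Krt18* and *Krt19* at W6 were at 1.07 and 0.53 on the same scale, each with an SE of 0.69, and ranged from 0.20 to 1.94 and from -0.27 to 1.34 with each library left out. At W2 against D0, *Krt8* was at 1.09 and *Krt18* at 0.81, with ranges of 0.33 to 1.85 and 0.16 to 1.45. For *Krt7* the values against D0 were 0.93 at W1, 0.75 at W2 and -0.18 at W6, each with an SE of 0.40, and W6 against W2 was -0.93 (adjusted P = 0.140 by limma).

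**Figure D3:**
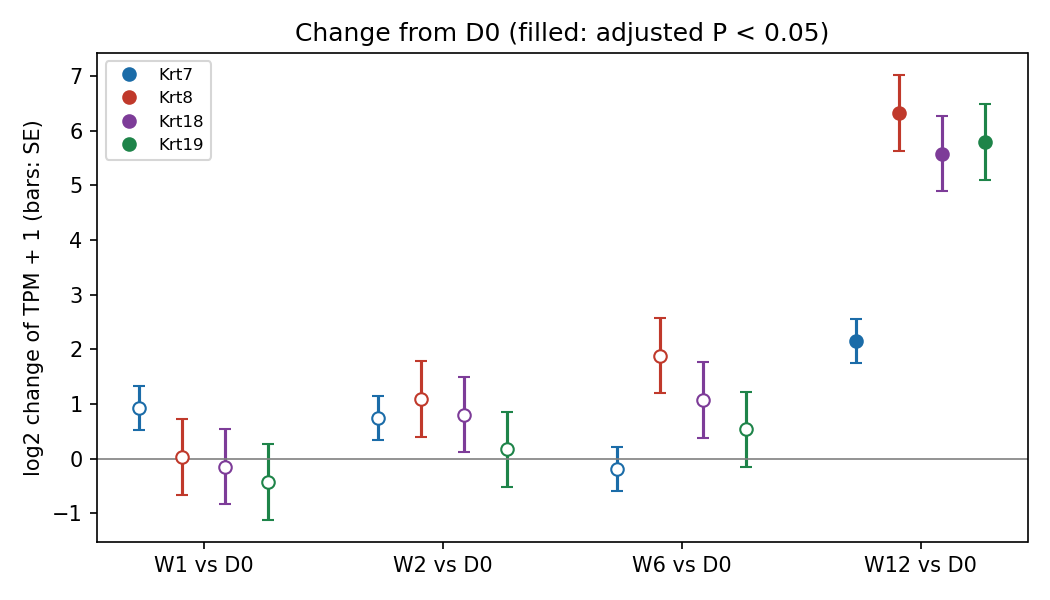
Log2 change of TPM + 1 from D0 (bars, SE of the limma fit) for the 4 keratins at W1, W2, W6 and W12, with filled points at an adjusted P under 0.05. Only the W12 points are filled, from 2.15 for *Krt7* to 6.33 for *Krt8*.

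The ratio of the partners was read in each library. In TPM, *Krt8* was 0.0735 and 0.586 of *Krt18* in the D0 libraries, 0.245 and 3.14 at W1, 1.12 and 0.757 at W2, 1.54 and 2.61 at W6, and 1.41 and 1.38 at W12. The 2 W12 libraries thus had nearly the same ratio although their *Krt8* levels differed 3.14-fold. *Krt19* to *Krt18* was 1.35 and 1.49 at W12, and the summed type II to type I ratio of the 4 genes was 0.655 and 0.604. Before W12 most of these ratios divide values under 1 TPM, as in replicate 2 of W2 and W6, so that W12 cannot be compared with earlier timepoints by them. *Krt7* made up 82.6% and 95.7% of the 4 genes' TPM at W1 and 3.37% and 3.03% at W12.

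The 4 genes remained minor keratins. Together they made up 0.00337% and 0.00242% of all keratin TPM at D0, 0.0227% and 0.00469% at W6, and 0.220% and 0.679% at W12, with no test. Of 54 keratin genes ordered by mean TPM, *Krt7* was 21st, *Krt19* 26th, *Krt18* 30th and *Krt8* 42nd at D0, and *Krt19* was 12th, *Krt8* 13th, *Krt18* 14th and *Krt7* 17th at W12. The 5 highest at D0 were *Krt14* (30499 TPM), *Krt5* (14691), *Krt15* (11584), *Krt17* (1289) and *Krt10* (1103), and at W12 *Krt14* (36519), *Krt5* (7588), *Krt6a* (4972), *Krt17* (3927) and *Krt16* (2490). *Krt14* still exceeded *Krt8* by 764-fold and 259-fold in the W12 libraries.

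**Figure D4:**
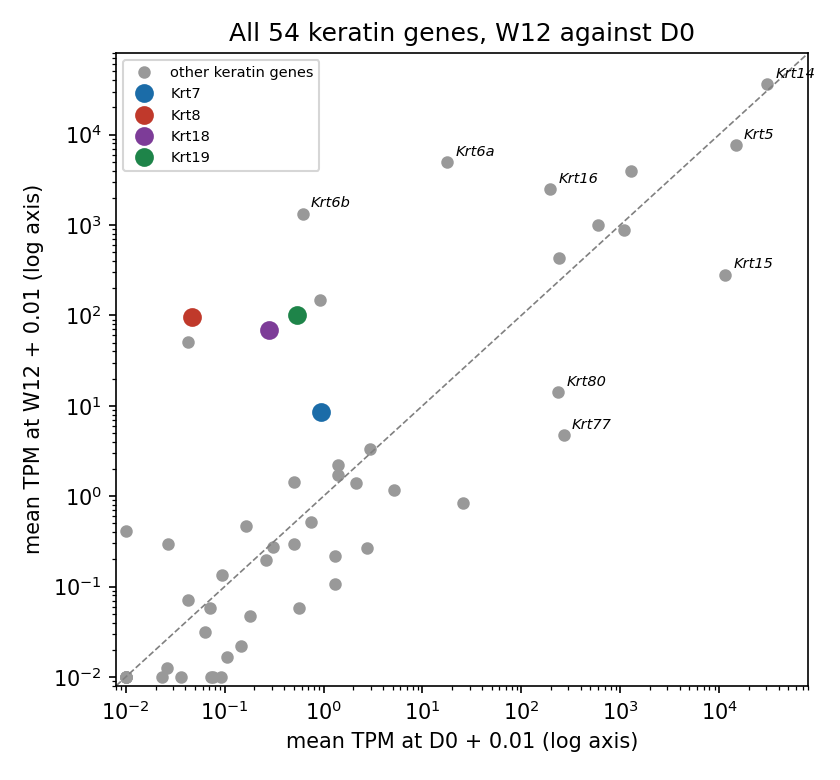
Mean TPM + 0.01 of the 54 keratin genes at W12 against D0 (log axes, n = 2 per timepoint; dashed line, equal levels). The 4 simple-epithelial keratins are coloured and lie above the line, *Krt8* from 0.0369 to 95.8 TPM, among a few other keratins such as *Krt6b*, and well under *Krt14* and *Krt5*.

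Of the 26 keratins tested, 10 were called higher and 6 lower at W12 than at D0, and *Krt8* had the third largest change after *Krt6b* and *Krt6a*. Of the 10, *Krt18*, *Krt19* and *Krt90* (mean of 0.500 TPM before W12) were tested only through W12, which leaves 7 of 23. Of the 22 keratins other than the 4, 6 were called higher, or 5 of 21 without *Krt90*, and 6 lower, and over all genes the shares were 17.9% and 25.1%. Of 3 other keratins listed beside the 4, *Krt80* fell by 3.91 ± 0.26 (SE, adjusted P = 2.24e-05 by limma), from 233.8 TPM at D0 to 14.0 at W12. Its level in the epidermal cells at D0 sets *Krt80* apart from the simple-epithelial keratins. *Krt23* was at 0.44 ± 0.21 at W12 (adjusted P = 0.114) and had been called higher at W2 (1.31, adjusted P = 0.00428). *Krt20*, a gut and Merkel cell keratin, was too low to test, at 0.258 and 0.544 TPM at W12. Of this list of 3, with 2 tested, 0 were called in either direction at W1, 1 higher at W2, 1 higher and 1 lower at W6, and 0 higher and 1 lower at W12. Over all genes, 5.79% were called higher and 4.1% lower at W1, 9.06% and 6.64% at W2, and 18.3% and 14.1% at W6.

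None of the basal keratins that form the normal EpdSC filament was called higher at W12. *Krt5*, the type II partner, fell by 0.95 ± 0.17 at W12 (adjusted P = 0.00270 by limma). *Krt15*, a type I keratin of basal and bulge cells, fell by 5.37 ± 0.44 (adjusted P = 5.73e-05), and *Krt14* was at 0.26 ± 0.19 (adjusted P = 0.308). Called lower were 0 of these 3 at W1 and W2, 2 at W6 and 2 at W12, and none was called higher at these timepoints. Of 8 suprabasal and wound keratins tested, 3, 4, 5 and 4 were called higher at W1, W2, W6 and W12, and 0, 1, 1 and 1 lower, beside 5.79%, 9.06%, 18.3% and 17.9% of all genes called higher. Without D0 replicate 2, 2 were higher at W2, and the counts of those higher at W1, W6 and W12 were the same. *Krt6b* (9.77), *Krt6a* (8.10) and *Krt16* (3.67) had the largest rises at W12, and *Krt77* fell by 5.83. *Krt6a* was already called at W1 (3.83, adjusted P = 0.00192 by limma), when *Krt8* was at 0.03. Over all genes, 4.1%, 6.64%, 14.1% and 25.1% were called lower at W1, W2, W6 and W12.

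Genes for proteins that anchor or organize keratin filaments were mostly lower at W12. Of 10 such genes tested, 0 were called higher and 8 lower, with a median of -1.25, where 17.9% of all genes were called higher and 25.1% lower. *Ppl* (periplakin) fell by 2.27 ± 0.30 (SE, adjusted P = 0.000660 by limma), *Plec* (plectin, the link to hemidesmosomes) by 2.17 ± 0.36 (adjusted P = 0.00201) and *Evpl* (envoplakin) by 1.82 ± 0.31 (adjusted P = 0.00216). *Dsp*, which ties keratins to desmosomes, was at -0.37 ± 0.13 (adjusted P = 0.0515). Without D0 replicate 2, 5 were called lower, and without the first or the second W12 library 6 and 7. Called earlier were 1 higher at W1, none at W2 and 3 lower at W6, beside 5.79% of all genes called higher at W1 and 14.1% lower at W6, and these 4 calls were lost without D0 replicate 2, when 1 other gene was called higher at W1. Among 4 other intermediate filament genes tested, none was called at W1, W2 or W6, and at W12 the mesenchymal *Vim* rose by 5.37 ± 0.43 (adjusted P = 5.03e-05), from 0.835 to 78.7 TPM, while the lamins *Lmnb1* (-1.34), *Lmna* (-1.12) and *Lmnb2* (-0.85) fell. Each lamin lost its call in at least 1 of the 3 fits that left out a D0 or W12 library, and *Vim* in none.

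Surface and junction genes of simple epithelia were called in both directions. Of 13 tested, 3 were called higher and 1 lower at W1, 3 and 1 at W2, 4 and 5 at W6, and 4 and 5 at W12, with a median of -0.16 at W12, where the shares of all genes called higher and lower were 5.79% and 4.1% at W1, 9.06% and 6.64% at W2, 18.3% and 14.1% at W6, and 17.9% and 25.1% at W12. The tight-junction claudins *Cldn4* (3.53 ± 0.59, adjusted P = 0.00199 by limma) and *Cldn3* (3.33 ± 0.45, adjusted P = 0.000697) rose, as did the adhesion molecule *Epcam* (1.07 ± 0.32, adjusted P = 0.0246), whose call was lost without either W12 library. *Cldn3* had already been called higher at W1 (1.93), W2 (2.09) and W6 (1.92), *Epcam* at W2 (1.17) and W6 (1.15), and *Cldn4* at W6 (2.43). *Cldn7* was also called at W12 (2.12 ± 0.48, adjusted P = 0.00803 by limma), but passed the filter only through W12 (mean of 0.767 TPM before). *Cldn4* went from 1.90 and 3.28 TPM in the D0 libraries to 21.8 and 71.1 TPM in those of W12, so that the second W12 library was again the higher one. *Cdh1*, which encodes E-cadherin, fell by 1.92 ± 0.24 (adjusted P = 0.000454), *Tjp3* by 1.70 and *Marveld3* by 1.46. Without D0 replicate 2 the counts at W12 were the same, and at W1, W2 and W6 3, 3 and 4 were higher and 0, 0 and 2 lower.

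**Figure D5:**
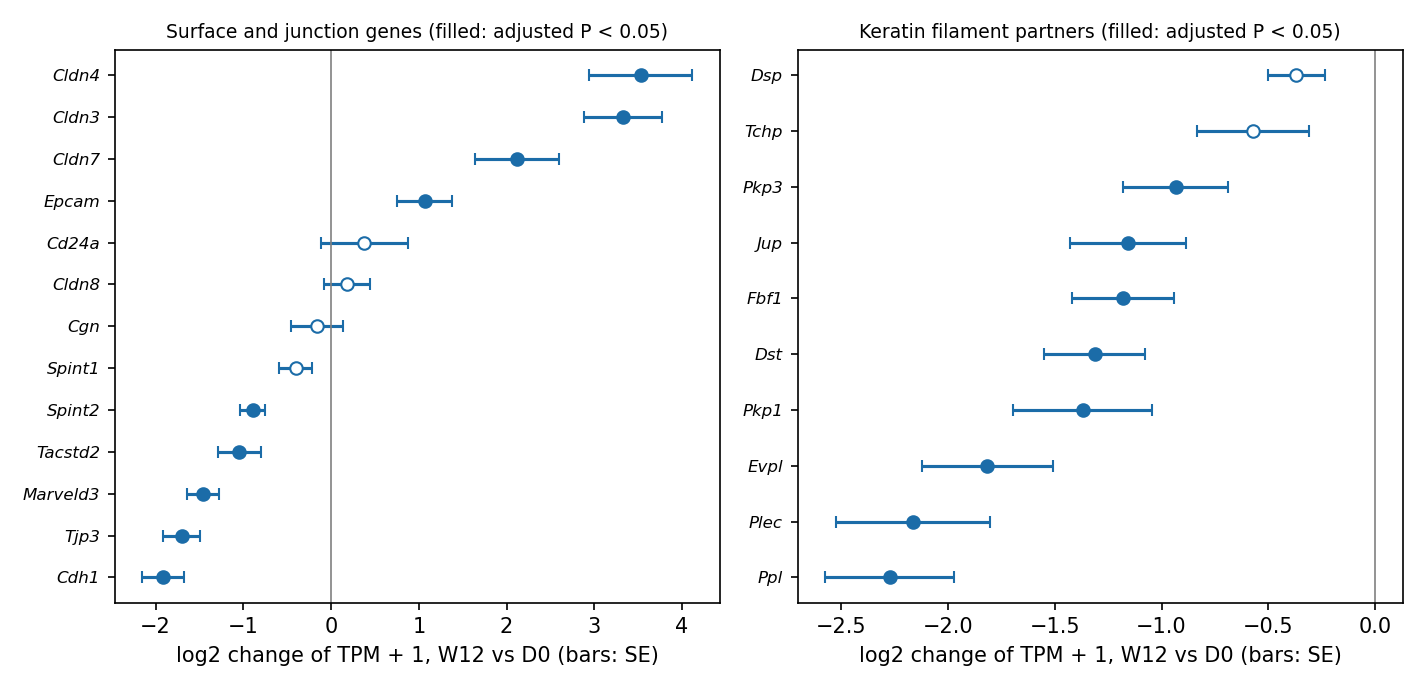
Log2 change of TPM + 1 from D0 to W12 (bars, SE) for the tested surface and junction genes and for the tested partners of keratin filaments, with filled points at an adjusted P under 0.05. The 3 claudins at the top of the left panel are between 2.12 and 3.53, and every partner in the right panel is below 0.

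Of 10 tested transcription and splicing factors of simple and other epithelia, 2 were called higher and 0 lower at W1, 1 and 2 at W2, 2 and 2 at W6, and 1 and 6 at W12, beside 5.79% and 4.1%, 9.06% and 6.64%, 18.3% and 14.1%, and 17.9% and 25.1% of all genes. The list is not confined to simple epithelia, as before W12 these epidermal cells averaged 252.4 TPM of *Klf5*, 77.4 of *Esrp2*, 41.1 of *Ehf* and 39.8 of *Grhl2*. Without D0 replicate 2, 1 was higher at W6, 1 was lower at W2 and 5 were lower at W12, where 3 and 4 were lower without the first and the second W12 library. The ETS factor *Ehf* rose at W12 by 2.45 ± 0.17 (SE, adjusted P = 2.48e-05 by limma), and *Grhl2* (-1.49), *Klf5* (-1.26) and *Esrp2* (-0.98) fell, the last with its call lost in each of these 3 fits. *Ehf* had already been called higher against D0 at W1 (1.05), W2 (1.61) and W6 (1.73). *Foxa1*, a pioneer factor of ductal and gut epithelia, was too low to test, at 0.0299 TPM or less in 7 of the 8 earlier libraries, 0.0944 in W2 replicate 1, and 0.632 and 3.60 at W12. Of 18 factors with known sites or effects at *Krt8*, *Krt18* or *Krt19*, 1 was called higher at each timepoint, and 8, 9, 12 and 14 were lower at W1, W2, W6 and W12, beside 4.1%, 6.64%, 14.1% and 25.1% of all genes. Without D0 replicate 2 the lower counts were 5, 5, 11 and 12. One of those lower at W1 was the entry of endogenous *Sox9* (-1.41, adjusted P = 0.0110 by limma), which is counted apart from the transgene that reached 3387 and 3414 TPM there. The transgene carries the *Sox9* coding sequence. How reads were divided between these entries is uncertain, so this fall may not be of the endogenous gene. With all libraries fitted, the one of the 18 factors higher at W12 was *Runx1* (1.65 ± 0.21, adjusted P = 0.000578 by limma). *Runx1* was also the one higher at W1 (1.89), W2 (2.92) and W6 (2.53). It was lower at W12 than at W6 (-0.88, adjusted P = 0.0228 by limma). The largest falls from D0 to W12 were in *Gata3* (-3.35), an epidermal regulator, and the AP-1 subunits *Junb* (-2.66) and *Fosl1* (-2.60).

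Copies of similar sequence could share reads with 2 of the 4 genes. The processed pseudogene *Krt8-ps* is 98.6% identical to *Krt8* over 941 aligned bases and was at 0.112 TPM or less before W12 and at 0.194 and 9.22 TPM at W12, and *Gm5200*, a copy of *Krt18*, was at 0.0649 TPM or less. How the reads were divided between *Krt8* and *Krt8-ps* is uncertain, and the larger pseudogene value came from the W12 library with more *Krt8*. The antisense gene *Gm671*, which overlaps *Krt7*, was at 0.0754 TPM or less.

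The genes around the 4 were read beside the 17.9% of all genes called higher and the 25.1% called lower at W12. Within 100000 bases of each gene, and among genes tested, *Krt7* had 2 neighbours, 0 called higher and 2 lower at W12 than at D0, one of them *Krt80*. *Krt8* and *Krt18* had 6 each, of which 1 was called higher, namely the other of the pair. *Krt8* had 2 neighbours called lower and *Krt18* had 3. *Krt79*, a neighbour of both, was at 238.6 TPM at D0, 4396 TPM at W6 and 427.4 TPM at W12 (0.91 against D0, adjusted P = 0.173 by limma). *Krt19* had 4, with *Krt16* higher and *Krt15* and *Krt32* lower.

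The genes tested whose profile over the 10 libraries was most like each keratin were ranked by Pearson's r of log2(TPM + 1), leaving out the other 3, as a description that rests largely on the W12 libraries. For *Krt8* these were *Trf* (transferrin, r = 0.991), *Gm12349* (0.990), *Tifa* (an adaptor of NF-kB signalling, 0.988), *Mmp9* (a matrix protease, 0.977) and *Kcnk1* (a potassium channel, 0.974). The first 3 of these were also in the list of *Krt18*, with *Gm12349* and *Trf* at 0.987, *Tifa* at 0.985, the cytokine *Tnf* at 0.977 and the chemokine *Cxcl17* at 0.975. *Trf* shared the replicate gap at W6, with 1.89 and 0.360 TPM, and was at 4.91 and 10.3 TPM at W12.

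*Krt19* was most like *Cxcl17* (0.987), *Slfn2* (0.983), the endothelial nitric oxide synthase *Nos3* (0.982), *Sprr2c-ps* and *Rnf125* (both 0.981). *Krt7* had looser matches, in *Adssl1* (0.952), *Ubd* (a ubiquitin-like modifier, 0.943), *Coro1a* (an actin regulator of leukocytes, 0.927), *Rasip1* (an endothelial RAS-binding protein, 0.915) and *Gm49628* (0.905). *Ubd* followed *Krt7* at 2.76 and 2.23 TPM at W1, 0.302 and 0.826 TPM at W6, and 6.79 and 14.0 TPM at W12. Of all genes tested, 7 had an r over 0.9 with *Krt7*, 284 with *Krt8*, 250 with *Krt18* and 256 with *Krt19*.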

How the data were processed

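RNA-seq was analysed in the 10 time-course libraries, grouped by their labels. The authors deposited gene-level TPM: they trimmed reads (Skewer), ran Salmon 1.4.0 on a GENCODE index of GRCm38 extended with the transgene, and combined transcripts into genes in Tximport 1.12.3. As TPM sum to 1000000 in every library, sequencing depth and counting error are unknown, and the authors' count-based test cannot be run. For 4 placode libraries the authors deposited only the outcome of their own comparison (means, log2 fold changes, their errors and p-values), which was not used.

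The 13110 genes that averaged 1 TPM or more over these libraries were tested on log2(TPM + 1) with limma 3.58.1 in R 4.3.3 (1 mean per timepoint, all 10 libraries, eBayes with trend, Benjamini-Hochberg, threshold 0.05) in 7 contrasts, after a check on simulated data. Replicates are labelled as separate biological samples. Gene positions and transcripts were those of GENCODE M21. Near copies were found with BLAST 2.17.0 (at least 90% identity over 200 bases).

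The 4 members and all lists were chosen with earlier results of these data known, and support nothing by themselves. Named are the 4 members, every gene of lists of up to 3, otherwise up to 3 rises and 3 falls past the threshold at W12 against D0, the 5 genes most like each member, and the 5 highest keratins at D0 and W12. Marker and neighbouring genes, *Dsp*, *Epcam*, *Foxa1*, *Krt79*, endogenous *Sox9* and the near copies were named outside this rule, after their values were seen. Alternatives were pseudocount 0.1, other filters (any TPM above 0, or a mean of 5), 2 other scalings, a variance model without trend, only the libraries of a contrast, the replicate number as a block, a length and GC correction and each library left out. A fit without W12, a block with crossed numbers and, for the lists, fits without D0 replicate 2 or a W12 library were added after seeing the data.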

Additional observations from a re-analysis of the deposited data

How the results depend on the processing

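The W12 calls of *Krt7*, *Krt8*, *Krt18* and *Krt19* against D0 kept their direction and their side of the threshold in every alternative that could be fitted, with log2 changes of 2.07 to 2.88, 6.16 to 9.23, 5.43 to 7.58 and 5.59 to 7.11, and of 1.47 to 2.84, 5.51 to 7.14, 4.76 to 6.41 and 4.90 to 6.70 with each library left out. Against W6 the ranges with each library left out were 1.65 to 3.02, 3.61 to 5.27, 3.64 to 5.38 and 4.37 to 6.16, and *Krt7* lost its call with only the 4 libraries of the contrast (2.34). *Krt7* has no value under the filter of 5 TPM, and *Krt18* and *Krt19* have none without W12 in the filter. Leaving out a library leaves 1 in its group, whose spread is taken from the other timepoints. The cause of the changes below was not tested.

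Values under the threshold changed sign as follows. *Krt8* at W1 against D0 was -0.048 with quantile normalization and -0.038 with the length and GC correction. *Krt19* at W2 against D0 was -0.083 with a pseudocount of 0.1 and -0.081 with quantile normalization. *Krt7* at W6 against D0 was 0.0095 with the length and GC correction. With each library left out, *Krt18* ranged from -0.38 to 0.087 at W1 against D0, *Krt19* from -0.49 to 0.83 at W2 and from -0.27 to 1.34 at W6 against D0, *Krt7* from -0.40 to 0.033 at W6 against D0, *Krt19* from -0.061 to 1.26 at W2 against W1, and *Krt8* from -0.035 to 1.63, *Krt18* from -0.60 to 1.13 and *Krt19* from -0.44 to 1.17 at W6 against W2. *Krt8* at W6 against D0 kept its sign, passed with a pseudocount of 0.1 (4.32) and ranged from 1.05 to 2.72 with each library left out, passing without W6 replicate 2.

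The number of genes called was, against D0, 1296 (W1), 2058 (W2), 4251 (W6) and 5642 (W12), 15 at W2 against W1, 2137 at W6 against W2 and 2642 at W12 against W6. With all genes above 0 TPM it was 606, 1011 and, at W6 against W2, 940. With only the 4 libraries of a contrast it was 411, 1086 and 1094 at W1, W2 and W6 against D0, 80 at W2 against W1, 966 at W6 against W2 and 887 at W12 against W6. W2 against W1 gave 7 with a pseudocount of 0.1, 31 with the length and GC correction and 6 without W12, and W6 against W2 gave 1343 without W12. With each library left out the counts were 377 to 1773, 652 to 2568, 2356 to 5047 and 3362 to 6168 against D0, 0 to 5 at W2 against W1, 207 to 2626 at W6 against W2 and 761 to 2846 at W12 against W6. Single libraries moved these by over 1.5 times. Against D0 they were D0 replicate 2 (2356 at W6 and 3737 at W12), W1 replicates 1 and 2 (609 and 377), W2 replicates 1 and 2 (782 and 652) and W12 replicates 1 and 2 (3362 and 3668). At W2 against W1 they were all 4 libraries (0 without W1 replicate 1 or either W2 library, 5 without W1 replicate 2; 1900 genes had an unadjusted P under 0.05 in limma with all libraries). At W6 against W2 they were W2 replicates 1 and 2 (207 and 331) and W6 replicate 2 (1175), and at W12 against W6 they were W6 replicate 1 (1600) and W12 replicates 1 and 2 (761 and 1285).

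Same-numbered replicates are different mice, so the numbers do not pair the samples, and correlations of their deviations ran from -0.129 to 0.182. With the replicate number as a block, 6 genes were called at W2 against W1 and 1396 at W6 against W2, and no call of the 4 keratins changed. Under crossed numbers, run where the correlation was under -0.1, the counts were 1225 at W1 and 4291 at W6 against D0 and 2666 at W12 against W6.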
